A study of Mus musculus with 6 samples.

Results

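Mitochondrial oxidative phosphorylation was examined in macrophages sorted from the dorsal root ganglion (DRG) after spared nerve injury (SNI), a model of neuropathic pain in which branches of the sciatic nerve are cut and a further branch is left intact. Its members were the genes whose symbols in the array annotation begin with Nduf, Uqcr, Cox4 to Cox8, Atp5 or Sdh, without pseudogenes, and they held 185 probe sets of 94 genes, of 45037 probe sets and 18193 named genes in all. A probe set is a group of short probes read together as 1 value. The name rule took in 80 nuclear genes for structural subunits with 165 probe sets, 13 assembly factors with 19 probe sets, and Ndufa4l2, a relative of the subunit Ndufa4. Of the genes, 53 had more than 1 probe set and 41 had 1. A further 10 probe sets that name a member together with another gene were left out, among them all of those for Ndufa11 and Ndufs6. No probe set was named here for a subunit that the mitochondrial genome itself encodes.

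The cells carried both F4/80 and CD11b and were sorted from pooled ipsilateral L4 and L5 DRG on day 7 after SNI. WT and miR-21 cKO mice gave 3 arrays each. Both genotypes were male littermates of 8 to 10 weeks and both had the injury, so no uninjured macrophages were measured. The miR-21 cKO mice came from a conditional miR-21 allele bred with FLP-Deleter and then with Avil-Cre mice. The Avil promoter drives Cre in sensory neurons, so the deletion was directed at the neurons and not at the sorted macrophages. The triplicates were collected independently, and how many mice made up a pool is not stated in the sources used here. RNA was hybridized to Affymetrix Mouse 430V2 arrays, and the deposited MAS5 signal of a probe set is a linear intensity scaled to the same trimmed mean of 500 on every array. The methods name a whole-transcript kit (WT Pico), while this array is of the 3′ type, and how the labelled strand matched its probes is not stated in the sources used here. That limits what any signal or difference given here says about a transcript.

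Oxidative phosphorylation makes most of the ATP of a resting cell. Complex I (NADH dehydrogenase) and complex II (succinate dehydrogenase, which is also an enzyme of the TCA cycle) pass electrons to ubiquinone, complex III passes them to cytochrome c, and complex IV (cytochrome c oxidase) passes them to oxygen. Complexes I, III and IV pump protons across the inner membrane, and complex V (ATP synthase) makes ATP as the protons return. In macrophages, respiration is known to be high in cells activated by IL-4 and low in cells activated by LPS and interferon gamma, which rely on glycolysis and in which succinate accumulates.

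The signals of these genes were dim. Since the deposited values carry no detection calls, olfactory receptor genes (Olfr), which a macrophage should lack, served as background. The 95th percentile of 47 Olfr probe sets, each averaged over the 6 arrays, was a signal of 1037, or 10.02 on the log2 scale. The mean over the 6 arrays was above it for 10 of the 185 OXPHOS probe sets (5.41%), against 4.95% of all probe sets. Only 1 was above it on all 6 arrays, against 0.968% of all, and 71 (38.4%) were above it on none, against 45.5% of all. On single arrays, 12.8% to 27.7% of the Olfr probe sets were themselves above it, beside 15.1% to 26.5% of the OXPHOS probe sets. A pass on a single array is thus no evidence of detection. The median OXPHOS probe set lay between the 46.8 and 54.3 percentile of all probe sets in WT and between the 51.2 and 57.9 percentile in miR-21 cKO. The median Olfr probe set lay between 51.8 and 70.7. It ranked above the median OXPHOS probe set on 5 of the 6 arrays and below it on WT array 1. Of the 2 genes for the sort markers, Adgre1 (F4/80) read 2237, 2559 and 1979 in WT and 2095, 96.9 and 2821 in miR-21 cKO, and Itgam (CD11b) read 157, 45.7 and 985 in WT and 1016, 983 and 1296 in miR-21 cKO. Adgre1 was thus above background on all arrays but 1, and Itgam on 1 array only. The median of 29 probe sets for 20 macrophage genes lay between the 45.9 and 81.1 percentile in WT and between 53.0 and 70.0 in miR-21 cKO. Signals of members close to the background have no certain order among themselves. Probes differ in how strongly they bind, so a brighter probe set is not evidence of a more abundant transcript.

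The members above background came from each complex but complex II. Atp5a1, the alpha subunit of the catalytic head of ATP synthase, had a probe set above background on all 6 arrays, 1423111_at, with signals of 3391, 2505 and 3019 in WT and 3029, 3444 and 1522 in miR-21 cKO. The genotypes overlapped, and the log2 difference of miR-21 cKO minus WT was -0.23 ± 0.71 (SE of the limma fit, n = 3 arrays per genotype). Of the same complex, Atp5d, the delta subunit of the central stalk, gave 4890.2, 1356 and 2786 in WT and 412, 5392 and 2139 in miR-21 cKO, and thus a spread within each genotype wider than the gap between their means (-0.65 ± 0.77). The third was Atp5j2, a small membrane subunit, which was chosen after its values were seen (-0.07 ± 0.84). In complex I the probe sets above background were 1431670_at of Ndufc2, an accessory subunit, with signals of 6235, 1981 and 1022 in WT and 617, 5602 and 4789 in miR-21 cKO, and 1457826_a_at of Ndufaf8, an assembly factor, with 3133, 8474 and 1094 in WT and 607, 2181 and 4159 in miR-21 cKO. The genotypes overlapped for either gene. Complex III was represented by its small subunits Uqcr10 and Uqcrq. Uqcrq read 5772 and 6771 on 2 WT arrays and 202 on the third, and 664, 256 and 1464 in miR-21 cKO. Complex IV was represented by Cox5b, a structural subunit with signals of 3485, 2401 and 2859.9 in WT and 2546, 3649 and 241 in miR-21 cKO, and by the tissue isoforms Cox6a2 and Cox6b2 described further on. None of the 10 was called, and the genotypes overlapped for each of them.

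**Figure D1:**
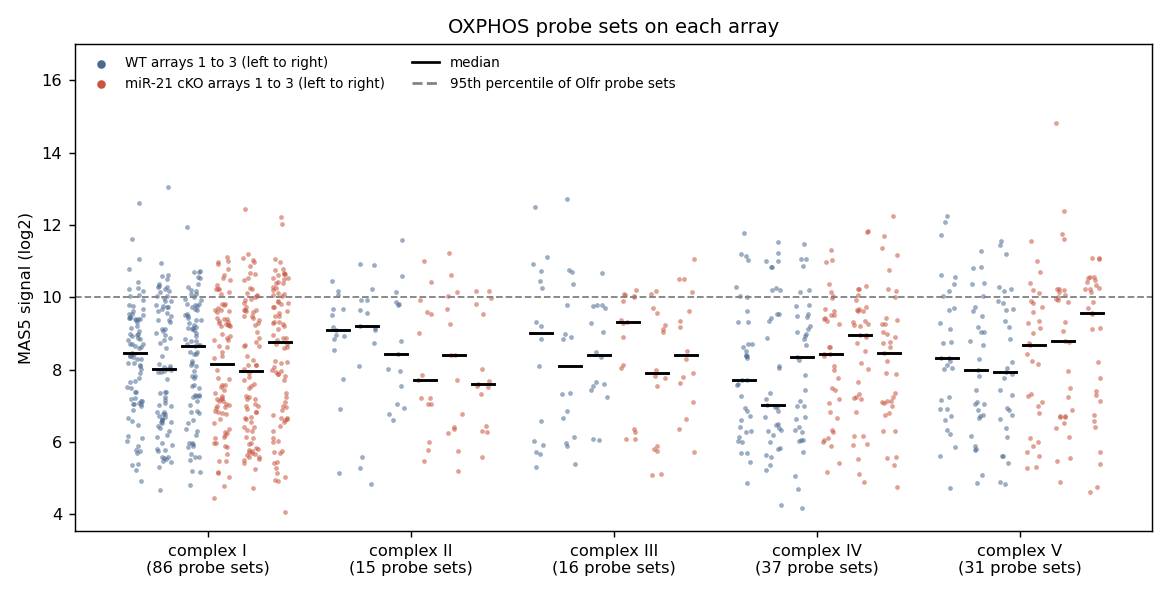
MAS5 signals (log2) of the OXPHOS probe sets by complex, 1 point per probe set, on WT arrays 1 to 3 (blue) and miR-21 cKO arrays 1 to 3 (red), with the median of each array as a black bar and the Olfr background of 10.02 as a dashed line. Every median bar lies under the line, and in complex V the 3 miR-21 cKO bars lie above the 3 WT bars.

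The complexes differed in how their middle member ranked on the 2 genotypes. For the 31 probe sets of complex V, the median ranked between the 46.0 and 51.1 percentile in WT and between 56.6 and 73.5 in miR-21 cKO, with no overlap. Complex II was the reverse: its 15 probe sets ranked between 54.1 and 66.3 in WT and between 41.0 and 52.8 in miR-21 cKO. Complex IV, with 37 probe sets, ranked between 31.4 and 53.2 in WT and between 53.2 and 59.6 in miR-21 cKO, so its lowest miR-21 cKO array lay at the level of the highest WT array. Complexes I and III overlapped. Such a gap was not particular to these complexes. Genes of the TCA cycle and pyruvate entry ranked between 34.7 and 38.6 in WT and between 43.4 and 53.2 in miR-21 cKO. Genes of mitochondrial transcription and biogenesis ranked between 42.1 and 50.6 in WT and between 31.0 and 38.7 in miR-21 cKO. The other pathway lists described further on overlapped. The median of the fitted log2 differences was 0.40 for complex V, -0.09 for complex II, 0.30 for complex IV, 0.13 for complex I and -0.12 for complex III, against -0.03 for all probe sets. These medians are descriptions of dim probe sets and rest on few arrays: leaving out WT array 2 turned that of complex V to -0.058, leaving out miR-21 cKO array 2 turned it to -0.014, and that of complex II was 0.045 without WT array 1 and -1.06 without WT array 3. In bulk samples such as these, fewer cells of a type and less RNA per cell cannot be told apart.

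The test of each probe set was limma on log2 signals. Its standard errors follow the array-wide trend of spread on brightness, not the spread of the single probe set. A call needed an unadjusted p under 0.05 and at least a 2-fold difference, the thresholds of the study's methods. Of the 185 OXPHOS probe sets, 12 were called (6.49%), 6 higher and 6 lower in miR-21 cKO, against 4.51% of all probe sets (2.11% higher and 2.4% lower), and 173 did not pass. After Benjamini-Hochberg adjustment over all probe sets by limma, 0 members passed, against 0.0222% of all probe sets, with 12 at an unadjusted p under 0.05, against 4.54%. The smallest adjusted p was 0.427. The methods' t-test called 9 members at the same thresholds, 5 of them shared with limma, against 4.94% of all probe sets. The 2 genotypes did not overlap for 20 members (10.8%), 11 higher and 9 lower, against 9.81% of all probe sets (4.74% higher and 5.07% lower). The fitted difference was above 0 for 98 members (53%), against 48.9% of all. Thus both shares lay near that of the whole array, in both directions. None of the 12 called probe sets had a mean above the Olfr background. Whichever array was left out, 3 of the 185 members were called, against 271 of the 45037 probe sets (0.602%). The share of the members was higher here but rests on 3 probe sets.

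**Figure D2:**
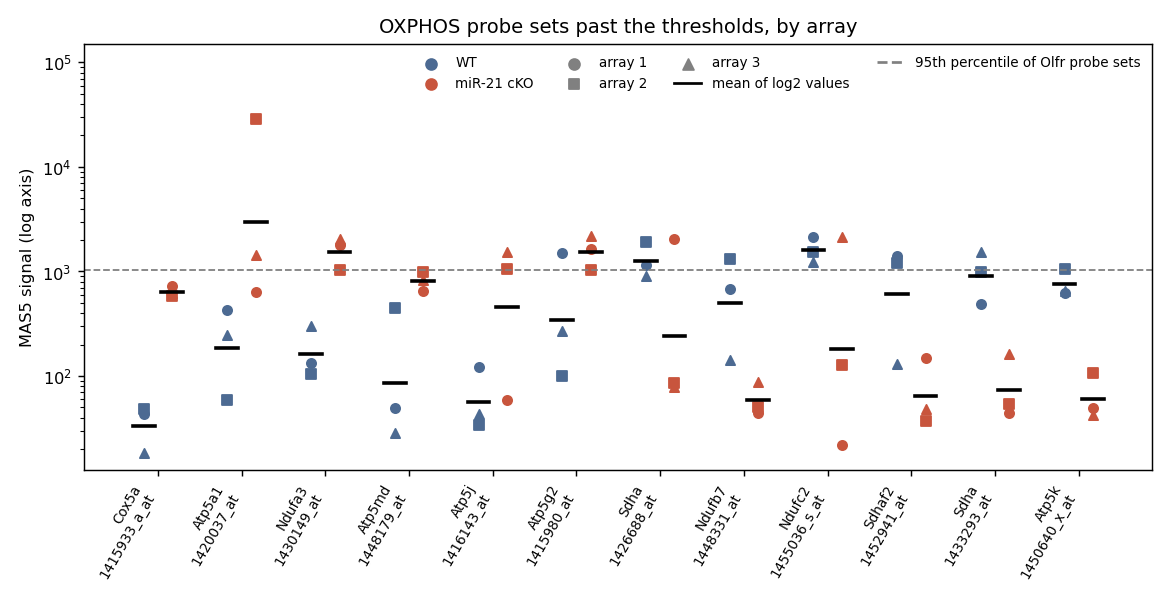
Signals of the 12 called OXPHOS probe sets on a log axis, 1 point per array (WT blue, miR-21 cKO red, a symbol for each array number), with the mean of the log2 values as a bar and the Olfr background of 1037 as a dashed line. For 7 of the 12 all 3 miR-21 cKO points lie on one side of all 3 WT points, and the other 5 overlap.

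Markers of the cells that a DRG sort could hold were read with the same test. Of the macrophage list, 3 of 29 probe sets were called higher, that of Itgam among them, and 2 lower in miR-21 cKO (17.2%, against 4.51% of all probe sets). The calls of mast cell markers went one way, with 0 of 11 probe sets called higher and 3 lower (27.3%), and a median rank between the 61.9 and 75.2 percentile in WT and between 28.7 and 57.3 in miR-21 cKO. Of 27 sensory neuron probe sets 2 were called higher and 1 lower, of 15 for fibroblasts and 10 for endothelium 1 each was called lower, and for satellite glia and Schwann cells, T and NK cells, B cells and neutrophils 0 were called. The list for brown fat and erythroid cells had 1 of 4 called lower, the hemoglobin gene Hba-a1 (-3.32 ± 1.43). No marker was listed at 0, but Olfr probe sets also read above 0, so a signal alone does not show a marker. The part of other cells in the OXPHOS differences was not tested.

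By complex, 4 members were called higher and 1 lower in complex V, 0 higher and 3 lower in complex II, 1 higher and 2 lower in complex I, 1 higher and 0 lower in complex IV, and 0 in complex III. The calls made up 16.1% of the probe sets of complex V and 20% of the 15 of complex II, against 4.51% of all probe sets, which for complex II is a share of few probe sets. Of the 20 members without overlap, complex I held 9 and complex III held 0. All 3 of complex II were lower and all 4 of complex IV were higher in miR-21 cKO, while complex V held 2 in each direction, where 9.81% of all probe sets were without overlap.

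Complex IV had a single call. Cox5a, a nuclear subunit that sits on the matrix side of cytochrome c oxidase, read 43.3, 47.9 and 18.2 in WT and 731, 587 and 616 in miR-21 cKO with probe set 1415933_a_at. Every miR-21 cKO array lay far above every WT array, for a log2 difference of 4.26 ± 1.47, and the difference stayed between 3.82 and 4.52 whichever array was left out. All 6 signals were under the Olfr background, and with signals under the 25th percentile of all signals set to that level (94.3) the difference was 2.77. The other 2 probe sets of Cox5a gave 0.49 ± 0.58 and 0.40 ± 1.38 and did not pass.

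In complex I, Ndufa3, an accessory subunit of the membrane arm, was called higher. Its probe set 1430149_at read 134, 104 and 301 in WT and 1774, 1027 and 2023 in miR-21 cKO, with no overlap and a log2 difference of 3.26 ± 1.22. The other probe sets of Ndufa3 gave -1.61 ± 1.31 and 0.15 ± 1.38, so the gene's probe sets did not go one way. Ndufb7, an accessory subunit on the intermembrane space side, was called lower with 1448331_at, which read 674, 1326 and 141 in WT and 44.7, 50.7 and 87.5 in miR-21 cKO (-3.10 ± 1.50). Its other probe set, 1416417_a_at, did not overlap in the opposite direction, with 685, 55.9 and 518 in WT and 809, 777 and 844 in miR-21 cKO (1.58 ± 1.24, not called). Ndufc2 was called lower with 1455036_s_at, at 2137, 1543 and 1236 in WT and 21.8, 129 and 2125 in miR-21 cKO. One miR-21 cKO array was as high as the WT arrays here, and the difference of -3.14 ± 1.19 was -1.61 without miR-21 cKO array 1.

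Complex II was the complex whose 3 calls all went one way. Sdha, the flavoprotein subunit that oxidizes succinate, was the only OXPHOS gene with 2 probe sets called in the same direction. That is 1 of the 53 OXPHOS genes with more than 1 probe set, against 34 of 9010 such genes on the array. Probe set 1433293_at of Sdha read 488, 981 and 1531 in WT and 44.6, 54.1 and 161 in miR-21 cKO (-3.63 ± 1.46). The genotypes did not overlap there. The second, 1426688_at, read 1155, 1932 and 906 in WT and 2038, 86.1 and 79.2 in miR-21 cKO (-2.40 ± 1.18), so that its highest array was a miR-21 cKO array, and the call was kept in 1 of the 6 fits that left out an array. The remaining probe sets of Sdha gave 0.00 and 1.56 on the log2 scale. Sdhaf2, the factor that inserts FAD into Sdha, was called lower with 1452941_at, at 1411, 1198 and 132 in WT and 149.6, 37.0 and 48.3 in miR-21 cKO (-3.23 ± 1.51). The genotypes overlapped by 1 array, and the call was kept in 2 of the 6 fits. Its other probe set did not overlap and was lower too, without passing (-1.74 ± 1.49).

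The other subunits of complex II did not pass the test. Sdhb, the iron-sulfur subunit, which was chosen after its values were seen, read 813, 751 and 942 in WT and 747, 82.4 and 86.5 in miR-21 cKO. Thus 1 of the 3 miR-21 cKO arrays lay just under the lowest WT array and 2 lay far below, for -2.25 ± 1.32. Sdhc, a membrane anchor of the complex, gave -1.85 ± 1.08 with 1435986_x_at and 0.11 ± 1.18 with 1448630_a_at. Sdhd, the second anchor, gave 0.32 ± 1.07 with 1437489_x_at and 1.49 ± 1.47 with 1428235_at.

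Complex V held 5 of the 12 calls. Atp5a1 was called higher with 1420037_at, at 429, 59.4 and 247 in WT and 631, 28887 and 1430.1 in miR-21 cKO. The log2 difference of 4.01 ± 1.08 carried the smallest p among the members (limma, unadjusted p = 2.09e-04, adjusted p = 0.427), and leaving out miR-21 cKO array 2 gave 2.36. That array's signal far exceeded the other 5. The methods' t-test, which uses the probe set's own spread, gave an unadjusted p = 0.100. The bright probe set of the same gene, described above, differed by -0.23. Atp5md, a small subunit of the membrane part, read 49.3, 444 and 28.5 in WT and 647, 996 and 834 in miR-21 cKO (3.25 ± 1.45), with no overlap. Atp5j, which encodes coupling factor 6 of the peripheral stalk, was high on 2 miR-21 cKO arrays only, with 121, 33.8 and 43.0 in WT and 58.8, 1061 and 1520.2 in miR-21 cKO (3.02 ± 1.49). Atp5g2, one of 3 genes for the c subunit of the rotor ring, read 1504, 101 and 267 in WT and 1649.6, 1033 and 2184 in miR-21 cKO (2.17 ± 1.08), and 1 WT array lay among the miR-21 cKO arrays. Its other probe sets gave -0.14 ± 1.02 and -0.13 ± 1.33 and did not pass. The calls of Atp5md, Atp5j and Atp5g2 were each kept in 2 of the 6 fits that left out an array.

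One member of complex V was called lower. Atp5k, the e subunit, which takes part in the dimerization of ATP synthase, read 623, 1056 and 645 in WT and 49.4, 106 and 42.2 in miR-21 cKO with 1450640_x_at. Every miR-21 cKO array was below every WT array, the difference was -3.64 ± 1.50, and it stayed between -4.04 and -3.38 when an array was left out. The other probe sets of Atp5k gave -1.34 and 1.13 and did not pass. Probe sets whose names end in _x_at or _s_at, as those of Atp5k and Ndufc2 do, can bind transcripts of more than 1 gene.

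**Figure D3:**
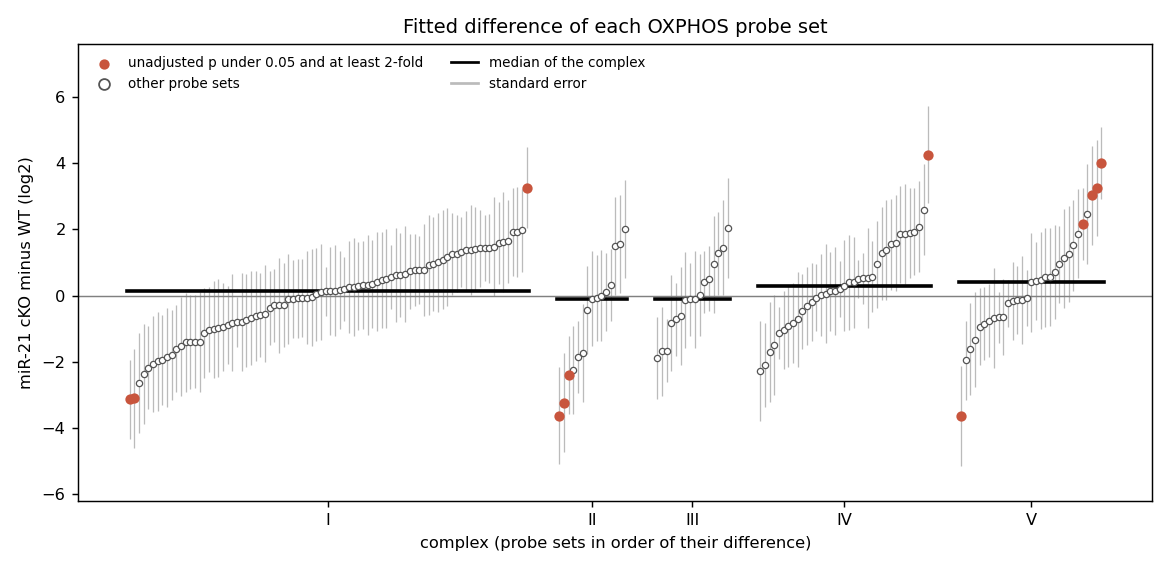
Log2 difference (miR-21 cKO minus WT) of each of the 185 OXPHOS probe sets with its standard error, in order of size within each complex, with the 12 called ones filled in red and the median of each complex as a black bar. Calls lie at the low end in complex II, at the high end in complex IV and at both ends in complexes I and V.

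Promoters of 3 called genes are shown, chosen for their NRF1 matches, because OXPHOS subunits are known to share sites for the transcription factors NRF1, GABPA (of the ETS family) and YY1. RefSeq windows of 300 bases on GRCm38.p6, 250 before to 50 after the annotated start, matched 78 of the 94 genes with 83 windows. Both strands were searched for GCGCA and GCGC with any single base between them (NRF1), CCGGAAG (ETS) and AANATGGCG (YY1). The NRF1 letters were in 24.1% of the OXPHOS windows against 4.6% of all windows in the table and 7.45% of those of genes on the array. The ETS letters were in 26.5% against 8.86% and 13%, and the YY1 letters in 13.3% against 2.38% and 3.54%. At least 1 of the 3 was in 54.2% of the OXPHOS windows against 14.2% and 21.4%, and in 0 windows did matches of different motifs share a base. The windows of Sdha, Atp5k and Atp5g2 are printed 5′ to 3′ on the strand of the gene, with the matches in capitals. That of Sdha (chr13:74350191-74350490, minus strand) held 3 NRF1 matches, that of Atp5k (chr5:108434350-108434649, minus strand) an NRF1 match followed by an ETS match, and that of Atp5g2 (chr15:102670998-102671297, minus strand) 1 NRF1 match.
Sdha: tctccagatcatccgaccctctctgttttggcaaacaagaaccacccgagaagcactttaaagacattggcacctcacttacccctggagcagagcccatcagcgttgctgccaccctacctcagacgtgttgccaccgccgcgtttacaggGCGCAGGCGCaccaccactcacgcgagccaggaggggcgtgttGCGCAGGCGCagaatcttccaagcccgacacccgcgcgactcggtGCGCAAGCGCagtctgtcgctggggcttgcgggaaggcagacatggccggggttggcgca
Atp5k: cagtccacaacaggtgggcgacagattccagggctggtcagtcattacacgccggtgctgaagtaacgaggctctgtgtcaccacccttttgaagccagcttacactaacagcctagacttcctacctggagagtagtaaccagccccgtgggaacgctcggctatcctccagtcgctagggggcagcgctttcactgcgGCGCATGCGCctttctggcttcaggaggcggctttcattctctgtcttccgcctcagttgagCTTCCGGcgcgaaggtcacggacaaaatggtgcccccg
Atp5g2: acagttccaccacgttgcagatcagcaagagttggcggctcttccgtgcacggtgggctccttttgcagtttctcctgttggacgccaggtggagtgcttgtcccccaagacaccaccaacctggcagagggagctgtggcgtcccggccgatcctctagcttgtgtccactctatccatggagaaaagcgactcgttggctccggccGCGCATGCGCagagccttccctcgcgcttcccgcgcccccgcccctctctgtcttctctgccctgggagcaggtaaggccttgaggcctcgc
The 3 genes hold the same NRF1 letters, and Sdha and Atp5k were called lower while Atp5g2 was called higher in miR-21 cKO. Of the other called genes with a window listed, Atp5md and Ndufb7 held an ETS match and Sdhaf2 held ETS and YY1 matches. Atp5j held ETS and YY1 matches in a window and none in its other window. Cox5a, Ndufa3 and Ndufc2 held none of the 3 motifs. Atp5a1 was left out of this listing, so whether it has a match is not given here. A match is a run of letters and was not tested as a binding site.

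Nrf1 itself, whose protein binds such sites, was called lower with 1 of its 4 probe sets. Probe set 1420978_at read 1167, 799 and 1251 in WT and 194, 47.8 and 174 in miR-21 cKO, without overlap (-3.17 ± 1.35). The other 3 gave -0.03, -1.97 and 0.58 and did not pass. Of the 38 probe sets for 16 genes of mitochondrial transcription and biogenesis, 0 were called higher and 2 lower. Those 2 made up 5.26%, near the 4.51% of all probe sets. The second was Tfb1m, a mitochondrial rRNA methyltransferase, at 3309.7, 945 and 1186 in WT and 183, 59.8 and 662 in miR-21 cKO (-3.00 ± 1.18).

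Several OXPHOS subunits exist as tissue isoforms, and these were compared gene by gene. Cox6a2, the isoform of heart and skeletal muscle, was above background on 5 of 6 arrays with 1417607_at, at 2255, 2973 and 885 in WT and 2096, 3602 and 2304 in miR-21 cKO (0.52 ± 0.76). The genotypes overlapped. Its second probe set lay between 47.3 and 128 on all arrays, under the background. The ubiquitous Cox6a1 was above background on 1 of 6 arrays with either probe set, with differences of 1.28 ± 1.40 and 1.85 ± 1.47. Cox6b2, the isoform of testis, was above background on 5 of 6 arrays, with 792, 2067 and 2118 in WT and 1309.7, 1195 and 3303 in miR-21 cKO (0.19 ± 0.84), and the ubiquitous Cox6b1 on 2 and on 1 with its 2 probe sets (1.93 ± 1.31 and 1.37 ± 1.51). The brightness of the isoforms was not compared. Muscle genes were read beside them: of 35 probe sets for 19 muscle genes, 1 was called higher (Myh1, 3.05 ± 1.38) and 1 lower (Des, -3.03 ± 0.89). These calls made up 5.71%, near the 4.51% of all probe sets. The median muscle probe set ranked between the 34.2 and 44.2 percentile in WT and between 41.9 and 53.6 in miR-21 cKO. No muscle gene is listed at 0, but neither are the Olfr genes, so a signal alone does not show muscle RNA. The part of muscle RNA in the Cox6a2 signal was not tested.

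Of the remaining isoform pairs, none was called. Cox7a2, the isoform of most tissues, read 332, 90.2 and 77.6 in WT and 1012, 1282 and 392 in miR-21 cKO with 1416971_at. There was no overlap, but the difference of 2.59 ± 1.38 missed the threshold (limma, unadjusted p = 0.0598), and its second probe set gave 0.40 ± 1.44. Cox7a1, the muscle isoform, did not overlap either, with 52.1, 80.2 and 64.9 in WT and 101, 616 and 108 in miR-21 cKO (1.54 ± 1.36). Cox4i1, the ubiquitous form of the subunit that binds ATP as an allosteric regulator, lay between 77.8 and 820.1 on all arrays, under the background (1.58 ± 1.45), and so did the lung isoform Cox4i2 (0.53 ± 1.51). The 3 probe sets of Cox8a gave -0.92, 1.86 and 0.12, and Cox8b, the muscle isoform, gave 0.01. Ndufa4, a subunit of complex IV in spite of its name, lay between 35.8 and 139 (0.57 ± 1.07), and its relative Ndufa4l2, a target of HIF-1, gave -2.10 ± 1.28 with 1 miR-21 cKO array at 2632 and the other 2 at 69.4 and 46.5.

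**Figure D4:**
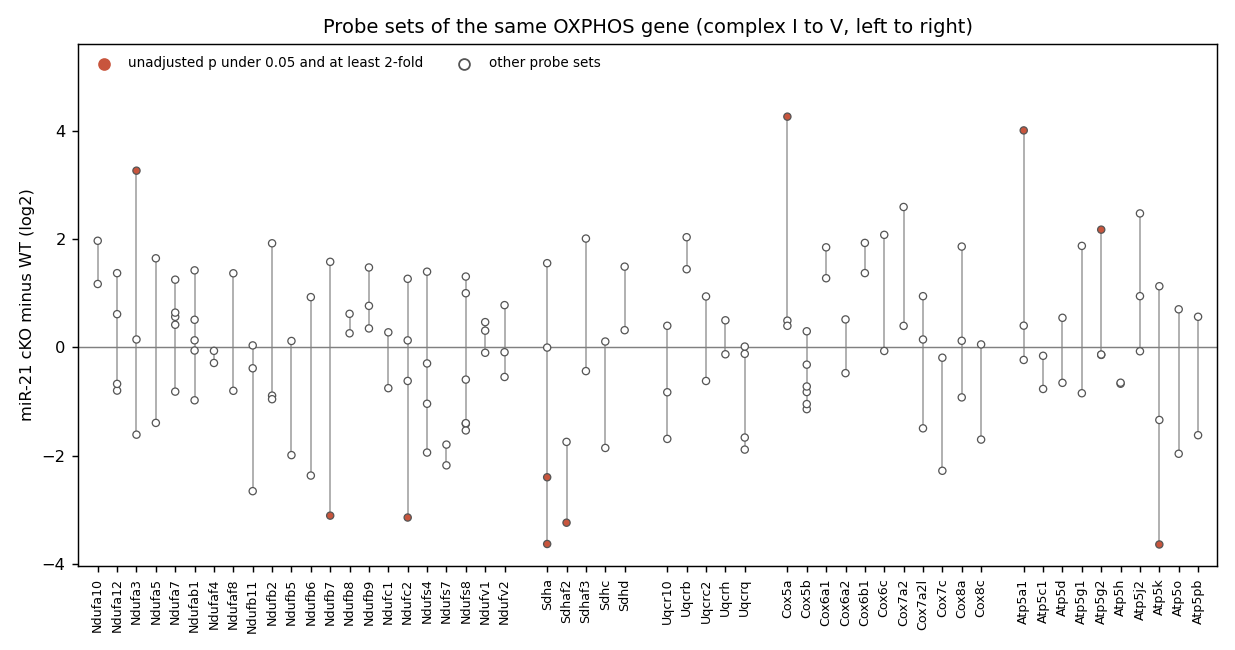
Log2 difference (miR-21 cKO minus WT) of every probe set of the 53 OXPHOS genes that have more than 1, with a vertical line joining the probe sets of a gene, complexes I to V from left to right and called probe sets in red. Most called genes also have a probe set near 0 or on the other side of 0, and Sdha is the gene with 2 called probe sets.

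How far probe sets of the same gene moved together was described over the 53 OXPHOS genes with more than 1. The median Spearman correlation of 152 same-gene pairs over the 6 arrays was -0.0857, and 46.1% of the pairs were above 0. Over all genes with several probe sets, 30372 pairs gave a median of 0.0286 with 50.3% above 0. All probe sets of a gene had the same sign of difference in 15 of the 53 OXPHOS genes (28.3%), against 34.9% of all such genes. Between arrays, the Spearman correlation over the 185 members ran from 0.1 to 0.484 with a median of 0.225, against 0.192 to 0.319 and a median of 0.238 over all probe sets. These are correlations across probe sets that share the arrays, and probe sets are not independent replicates. An example is Cox5b, which has 6 probe sets that gave -0.82, -1.14, -0.32, 0.30, -1.04 and -0.72, of which none passed. Ndufs7, a core subunit of complex I chosen after its values were seen, had both probe sets without overlap and lower in miR-21 cKO, at -2.18 ± 1.25 and -1.79 ± 1.35, and neither passed.

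The other steps of energy metabolism are given by their calls, read against 4.51% of all probe sets. The mobile carrier list held 6 probe sets, of Cyc1, the cytochrome subunit of complex III, and of the cytochromes c Cycs and Cyct, with 0 called. Of 54 probe sets for 31 assembly factors and chaperones of the respiratory complexes, 0 were called higher and 3 lower: Cox11, a copper chaperone of complex IV (-2.98 ± 1.50), Cox15, which takes part in the synthesis of heme A (-2.08 ± 1.06), and Cox16, another complex IV factor (-3.14 ± 1.47). Each of these 3 genes had other probe sets with differences above 0 that were not called. Of 41 probe sets for the TCA cycle and pyruvate entry, 1 was called higher and 0 lower. It was Pdhb, a subunit of pyruvate dehydrogenase, at 86.6, 30.4 and 43.0 in WT and 1102, 1226 and 116 in miR-21 cKO (3.48 ± 1.50), while its second probe set gave -1.60 ± 1.14.

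Of 43 probe sets for 19 genes of glycolysis, 2 were called higher and 2 lower (9.3%, against 4.51% of all probe sets). Those higher were Pgam1, phosphoglycerate mutase (2.79 ± 1.28), and 1 of 3 probe sets of the glucose transporter Slc2a1 (2.28 ± 1.13), whose other 2 gave -1.48 and -2.01. Those lower were 1 of 4 probe sets of Hif1a, the hypoxia-inducible activator of glycolytic genes (-3.42 ± 1.50), and 1 of 3 of Pfkl, the liver form of phosphofructokinase (-2.27 ± 1.08). Of 38 probe sets for uncoupling, ADP exchange and mitochondrial antioxidants, 1 was called higher, an _x_at probe set of the ADP/ATP carrier Slc25a5 (3.02 ± 1.39), and 0 lower.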

How the data were processed

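Macrophages (F4/80+CD11b+) were sorted from pooled ipsilateral L4 and L5 DRG on day 7 after SNI and measured on 3 WT and 3 miR-21 cKO arrays, grouped by the sample labels. RNA was amplified by the authors (WT Pico kit) for Affymetrix Mouse 430V2 arrays, with MAS5 pre-processing in Expression Console. As deposited, each value is a linear intensity, with a trimmed mean of 500 on every array (2% trimmed at each end). The sources used here do not give the MAS5 version. Arrays give no counts, and the number of arrays limits the precision.

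The 64 control probe sets were left out and 45037 tested with no filter. Log2 signals, without a pseudocount, were fitted with limma 3.58.1 in R 4.3.3 (lmFit, eBayes with an intensity trend), as miR-21 cKO minus WT, with Benjamini-Hochberg adjustment. The prior degrees of freedom were infinite, so each standard error reflects the trend of spread on brightness. The methods name no test for the array p-values, and a Student's test, called the methods' t-test because the statistics section names it for pairs of groups, was an alternative. An exact permutation test of 3 against 3 arrays cannot go below a two-sided p of 0.1. It was computed for the members but not used for calls. Tables were made with pandas 2.3.3 in Python 3.11.15.

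Names came from the platform annotation. Symbols updated through Entrez gave the same 185 probe sets. Genes named were those called, the 2 brightest per complex and the isoform pairs, and on other lists those called. Members and lists were chosen with earlier results of these data known. Alternatives were normalization (quantile, median centring), a floor, filters on dim probe sets, array weights, 1 value per gene, the replicate number as a block and leaving out each array.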

Additional observations from a re-analysis of the deposited data

Results flagged for a closer look

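A signal appeared in a probe set that entered no comparison because it names both Ndufb2, an accessory subunit of complex I, and Adck2. Probe set 1453806_at read 101, 114 and 870 in WT and 652, 1712 and 1644 in miR-21 cKO. The log2 difference was 2.51 ± 1.21 (limma, n = 3 arrays per genotype, unadjusted p = 0.0376), and 1 WT array lay above the lowest miR-21 cKO array. Which of the 2 genes the signal belongs to was not tested. Outliers within a genotype were not tested, since each genotype had 3 arrays.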

How the results depend on the processing

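Calls were 6 higher and 6 lower in the fit reported. Quantile normalization and median centring kept all 12, array weights kept 12, the limma fit without trend 10 and the methods' t-test 5. A floor at the 25th percentile (signal 94.3) gave 3 higher and 2 lower, and 5 of the 12 kept the call. The calls on the whole array with the floor are not given here, so the members were not compared with it. With only probe sets above the median level tested, 4 members were called higher and 2 lower, all 6 of the called ones still tested, with 441 higher and 530 lower on the whole array. The numbers tested with this filter are not given here, so the shares were not compared. Testing only probe sets above the Olfr background left 0 members called in either direction and a median of -0.15, with no complex II probe set. On the array, 34 were then called higher and 49 lower of the 2231 tested. The brightest probe set per gene gave 4 higher and 1 lower, all 5 of the called ones still tested (array 402 higher, 431 lower, 4.58% of 18193). The mean of all probe sets per gene gave 3 higher and 3 lower of 94 genes (array 464 and 501 of 18193), and 3 of the 11 called genes kept their call. When each array was left out in turn, members called higher ranged from 3 to 6 (3 without WT array 3), those called lower from 3 to 7 (3 without WT array 2), and the OXPHOS median from -0.02 (without miR-21 cKO array 3) to 0.18. On the whole array the calls ranged from 801 to 969 higher and from 797 to 1178 lower. The cause of these changes was not tested, apart from the fewer probe sets or arrays that the filters and omissions leave.

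Replicate numbers did not pair the arrays. With the genotype mean of each probe set taken out, the correlations of same-numbered arrays ran from -0.0329 to -0.0159. In these deviations, 0 of 6 arrays correlated best with their own number. With the replicate number as a block, 5 members were called higher and 6 lower (array 901 and 1034). Atp5g2 was no longer called.

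Some uncalled differences changed sign, and not all of them were near 0 in the fit reported (Cox5b 1435613_x_at was -1.14). With the mean of all probe sets per gene, Ndufc2 gave -0.59, Ndufaf8 0.28, Uqcr10 -0.70, Atp5a1 1.39, Cox6a2 0.022 and Cox8a 0.35. That mean takes in the other probe sets of the gene, for Atp5a1 the called 1420037_at among them. Cox8b gave -0.044 after quantile normalization, -0.16 with the floor, -0.26 with array weights and -0.40 from mean linear signals, and Ndufc2 -0.00296 with array weights. When 1 array was left out, the ranges were -0.46 to 1.15 for Ndufc2 (1431670_at), -0.43 to 1.42 for Sdhd, -0.066 to 0.97 for Uqcr10, -1.88 to 0.081 for Cox5b, -0.46 to 0.13 for Atp5a1 (1423111_at), -1.49 to 0.36 for Atp5d, -0.28 to 0.46 for Cox6b2, -0.70 to 1.05 for Cox7a2 (1416970_a_at), -0.79 to 1.10 for Cox8a (1448222_x_at) and -1.39 to 0.87 for Cox8b. The complex IV median stayed above 0 in every setting run (0.12 to 0.53).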
